A study of Danio rerio with 19 samples.

Results

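The cytokines, chemokines and NF-kB response genes described here are a list of 45 zebrafish gene names, of which 44 matched, to 44 of the 32020 gene IDs in the count tables. A name was matched to a gene symbol regardless of case, or, without a match, after its final paralog letter was dropped; rel, irg1l and mmp13a were given by ID. By role the 44 IDs are 12 cytokine ligands, 12 chemokines, 15 regulators and 5 effectors. The regulators are the receptor il4r.1, stat3, the SOCS inhibitors, the NF-kB subunits with their inhibitors, and nfkbiz. The names socs3a and socs3b share the same 2 SOCS3 IDs, and ptgs2a and ptgs2b share the same 2 PTGS2 IDs, so these 4 genes are named by ID. The name saa matched no symbol and was not analysed here.

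Cytokines and chemokines are secreted proteins that alert and recruit immune cells. Their receptors, and receptors for microbial products and damaged cells, release NF-kB dimers (rel, rela, relb, and the products of nfkb1 and nfkb2) from inhibitor proteins of the IκB family, and the freed dimers switch on cytokine and chemokine genes together with the genes of their own inhibitors. STAT proteins carry the signal of many cytokine receptors and are held back by SOCS proteins, whose genes they induce. In the brain the main sources and targets of these signals are microglia, and in a larval fish head neutrophils, macrophages and the epidermis respond as well.

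Bulk RNA-seq gave 19 libraries, each prepared from 1 larval zebrafish head without the eyes, in a study of autism risk genes. The scn1lab line carries the scn1labΔ44 deletion, which hits a gene for a voltage-gated sodium channel. Its libraries come from 3 homozygotes (HOM), 3 heterozygotes (HET) and 3 wild types (WT). The dyrk1a line carries the deletions dyrk1aaΔ77 and dyrk1abΔ8 in the paired zebrafish genes for 1 protein kinase, and has 4 HOM, 3 HET and 3 WT libraries. Larvae came from crosses between heterozygous parents and were matched as siblings or cousins; WT larvae carry none of these deletions, no treatment is named, and the age is not given in the sources used here. Levels are in CPM, each gene's count scaled to a fixed library total, on TMM-scaled library sizes, listed in the order of the replicate numbers (dyrk1a HOM 1, 2, 3 and 5, HET 2, 3 and 4, WT 1, 2 and 4). CPM is not scaled to gene length, so levels are compared between libraries and not between genes. Each library is a single head, so in every comparison fewer cells of a type and less RNA per cell cannot be told apart.

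Libraries held 15.1 to 29.9 M counts. The labels call the tissue whole brain, whereas the protocol describes heads: a list of 24 epidermal marker genes took 1.92% to 7.31% of the counts, and 32 neuronal marker genes took 0.0588% to 0.708%. Digestive organ genes, 34 IDs, made up 11.99% of the reads counted for scn1lab HOM1 and 14.7% for HOM3, 2.40% and 11.3% in scn1lab HET1 and HET2, and 5.14% in dyrk1a HET4. They took at most 1.06% in the other 14 libraries, and 0.0432% in scn1lab HOM2.

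In scn1lab homozygous heads most of the inflammatory genes listed stood above wild type. The list was chosen with earlier results of these data known, so its shares and medians are a description and not a test. Of 33 members tested, 32 had a log2 change above 0, against 54.6% of all 21466 genes tested. The median member change was 0.74, against 0.09 over all genes. The members with the greatest changes were the acod1 relative irg1l, the IκB-family regulator nfkbiz, the collagenase mmp13a and the chemokine ccl20a.3, with log2 changes between 3.22 and 3.50. None of these passed in the fit of all 9 scn1lab libraries, where 0 of 33 members had an edgeR adjusted p under 0.05 (0.0% of all genes were called higher and 0.00466% lower). At an unadjusted p under 0.05, 12 members were named there, 11 of them higher, while 9.8% of all genes were named higher and 18.9% in either direction. In a fit restricted to HOM and WT, 6 libraries, 7 of 33 members rose and 0 fell, against 4.29% of all genes called higher and 5.75% called lower. DESeq2, fitted to more genes, called 8 of 39 members higher, against 2.79% of all 26890 genes.

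The 7 members that rose in the fit of HOM and WT alone were ccl20a.3, mmp13a, nfkbiz, nfkbie, nfkb2, rel and stat3. The number was 0 without HOM1, without WT2, without WT3, and without HOM1 and HOM3 together, and it was 4 without WT1, 6 without HOM2 and 7 without HOM3. Over all genes the share called higher was 0.0% in the 4 fits without a member called, 1.83% without WT1, 3.06% without HOM2 and 2.39% without HOM3. On TMM-scaled CPM all HOM libraries lay above all WT libraries for 18 members, while the same held for 18.2% of all genes, and 1 member lay below (18.3% of all genes). On unscaled CPM 7 members lay above (5.15% of all genes) and 1 lay below (30.2%). The scaling moves the median log2 ratio of all genes from -0.30 to 0.08, and that of the members from 0.26 to 0.64. On both scales 31 of 33 members stood above the median of all genes. Scaling moves a whole library at once, so it can hardly change this count. The 7 members above on unscaled CPM were mmp13a, mmp9, rel, irg1l, nfkbie, ccl20a.3 and nfkbiz, and the other 11 of the 18 overlapped. On unscaled CPM 23 of 33 members had a log2 ratio above 0, and on TMM-scaled CPM 32.

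**Figure D1:**
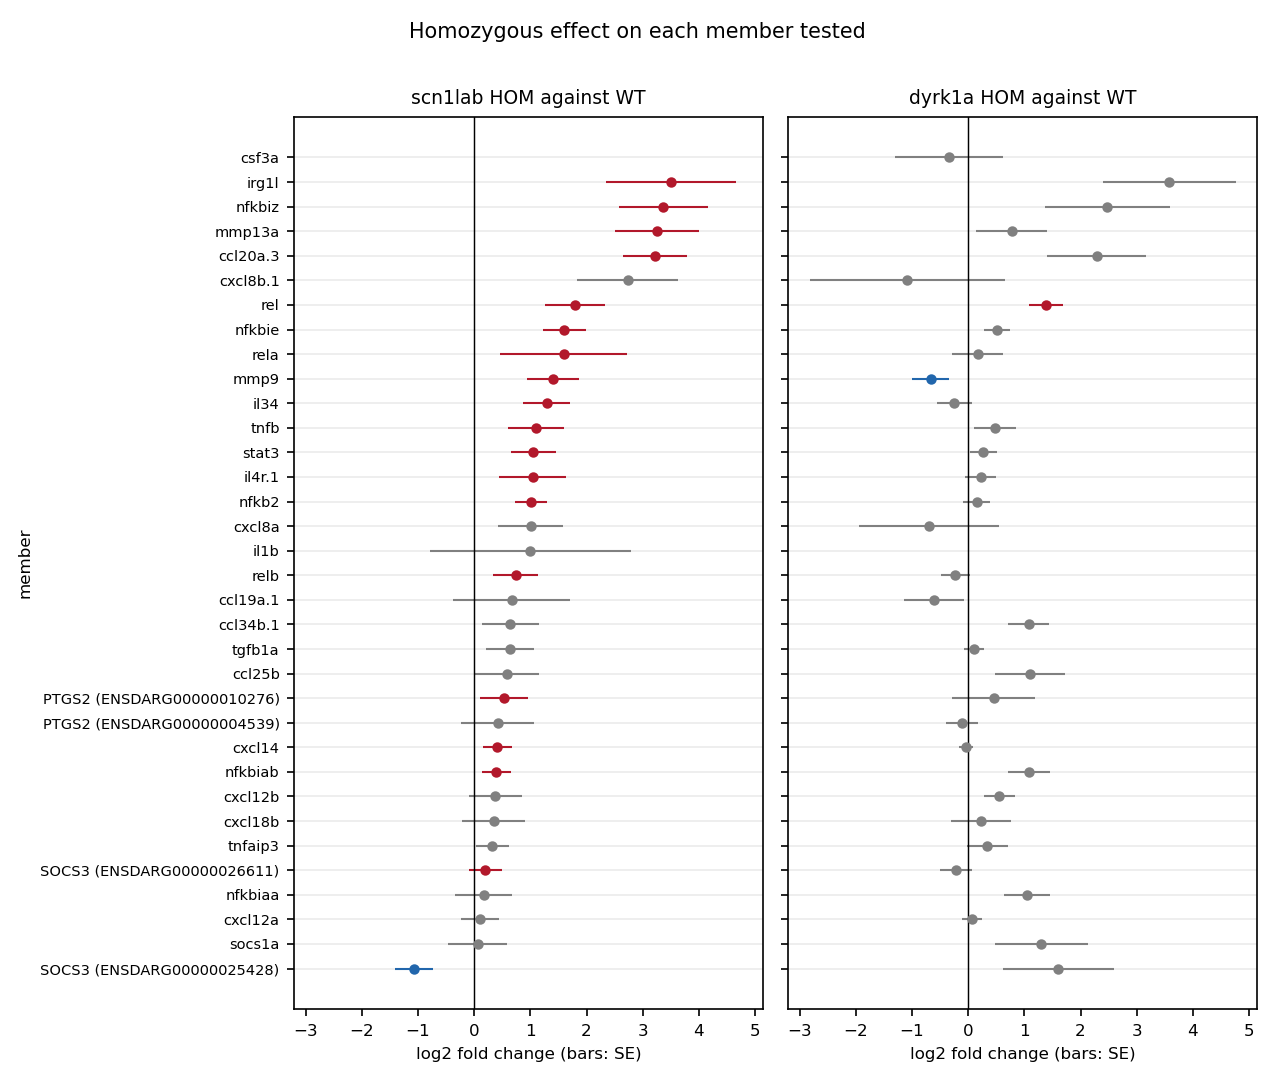
Log2 fold change of HOM against WT (x axis; bars, SE) for each member tested, by line. Red marks members whose HOM libraries all lie above all WT libraries on TMM-scaled CPM, blue those that all lie below, grey those that overlap. In scn1lab 32 of 33 members lie right of 0 and in dyrk1a 23 of 33.

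Among the cytokine ligands, 4 of 12 had enough counts to be tested in scn1lab, and 4 of 4 had a log2 change above 0 in HOM (0.64 to 1.29). The macrophage and microglia growth factor il34 stood at 16.7, 10.1 and 7.29 CPM in scn1lab HOM1 to HOM3, against 9.78, 5.48 and 8.92 in HET and 3.71, 6.01 and 4.26 in WT. Each HOM library exceeded each WT library, and HOM1 was highest; the log2 change was 1.29 (SE 0.42), with an edgeR adjusted p of 0.181 in the fit of all 9 libraries and 0.0734 in the fit of HOM and WT alone. Levels of tnfb, one of the zebrafish TNF ligands, were 10.7, 6.43 and 5.57 CPM in HOM and 2.60, 5.17 and 2.82 in WT (log2 change 1.101 (SE 0.50), adjusted p = 0.269). The HOM and WT ranges of tnfb did not overlap. The ligand tgfb1a, which in mammals restrains inflammation, stood at 22.5, 22.0 and 14.6 CPM in HOM, against 23.8, 14.4 and 47.7 in HET and 15.6, 12.1 and 10.3 in WT; HET3 was far above every other library, and HOM overlapped WT. The pyrogenic cytokine il1b reached at most 38 counts in any library and was counted in 12 of 19; in scn1lab HOM it stood at 2.21, 0.282 and 0.704 CPM, against 0, 0.328 and 1.25 CPM in WT, which overlapped.

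Most of the classical inflammatory ligands were near the limit of detection in every group. No count of il6 or il12a was found in any of the 19 libraries, where the floor of 3 counts stands at 0.0984 to 0.265 CPM by library. The members il10, il11a, il11b, tnfa, csf3b, cxcl11.1, ccl34a.4 and nfkb1 had at most 15 counts in any library, so these 10 members were tested in neither line in the main edgeR fit. The granulocyte growth factor csf3a was tested in the dyrk1a line only: it stood at 0, 1.07, 1.13 and 1.76 CPM in dyrk1a HOM, against 2.22, 2.09 and 1.098 in HET and 1.01, 1.35 and 1.42 in WT. In the scn1lab line csf3a did not exceed 0.618 CPM.

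Of the 12 chemokines, 10 were tested in scn1lab and 10 of 10 had a log2 change above 0 in HOM, with a median of 0.61. The gene ccl20a.3 belongs to the CCL20 family, whose mammalian member attracts lymphocytes and dendritic cells. It stood at 13.1, 6.62 and 5.05 CPM in scn1lab HOM, against 2.08, 2.44 and 3.44 in HET and 1.34, 0.583 and 0.721 in WT. The 3 genotypes did not overlap, with HET between WT and HOM. The log2 change in HOM was 3.22 (SE 0.57), with edgeR adjusted p = 0.142 in the fit of all 9 libraries, 0.0236 with HOM and WT alone and 1.94e-05 in DESeq2.

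The 2 CXCL8-type chemokines, which draw in neutrophils, were uneven between HOM libraries. Levels of cxcl8b.1 were 7.12, 0.610 and 9.47 CPM in HOM1 to HOM3, against 1.18, 1.46 and 1.15 in HET and 0.394, 1.09 and 1.082 in WT. HOM1 and HOM3, the 2 HOM libraries with digestive organ shares of 11.99% and 14.7%, were high, and HOM2, with 0.0432%, lay within the WT range. The log2 change of 2.73 (SE 0.90) had an edgeR adjusted p of 0.181 (0.037 in DESeq2), and with the high digestive libraries left out it was -0.49 (adjusted p = 0.843). The paralog cxcl8a stood at 10.7, 15.3 and 4.16 CPM in HOM and 6.55, 4.59 and 3.87 in WT, with HOM3 inside the WT range.

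The chemokines that guide cells in resting tissue did not pass in HOM. Of all 10 chemokines tested, edgeR called 0 in the fit of all 9 libraries and 1, ccl20a.3, with HOM and WT alone. The gene cxcl14 stood at 199, 171 and 218 CPM in scn1lab HOM, against 138, 114 and 73.4 in HET and 153, 153 and 136 in WT; HOM lay above both other groups, with a log2 change of 0.41 (SE 0.26) against WT (edgeR adjusted p = 0.42) and 0.85 (SE 0.27) against HET (adjusted p = 0.945). The stem cell and neuron guidance cue cxcl12a stood at 102, 140.4 and 86.1 CPM in HOM, against 133, 155 and 301 in HET and 109, 99.95 and 96.4 in WT. HET3 held the highest level, and HOM overlapped WT. The CC chemokine ccl34b.1, a marker of microglia in zebrafish, stood at 176, 176 and 66.8 CPM in HOM, against 151, 157 and 432 in HET and 80.6, 118 and 69.3 in WT, again with HET3 highest and HOM3 below all WT libraries. The chemokines ccl19a.1, ccl25b and cxcl18b overlapped between HOM and WT on TMM-scaled CPM in both lines, with log2 changes in scn1lab of 0.67 (SE 1.05), 0.58 (SE 0.57) and 0.35 (SE 0.56). Levels of cxcl12b ran from 18.0 to 35.6 CPM in scn1lab HOM and from 17.8 to 32.5 in WT, which overlapped. For ccl20a.3, ccl34b.1 and cxcl8b.1 near-identical tandem copies may share reads, and how the deposited counts split such reads is not given in the sources used here.

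**Figure D2:**
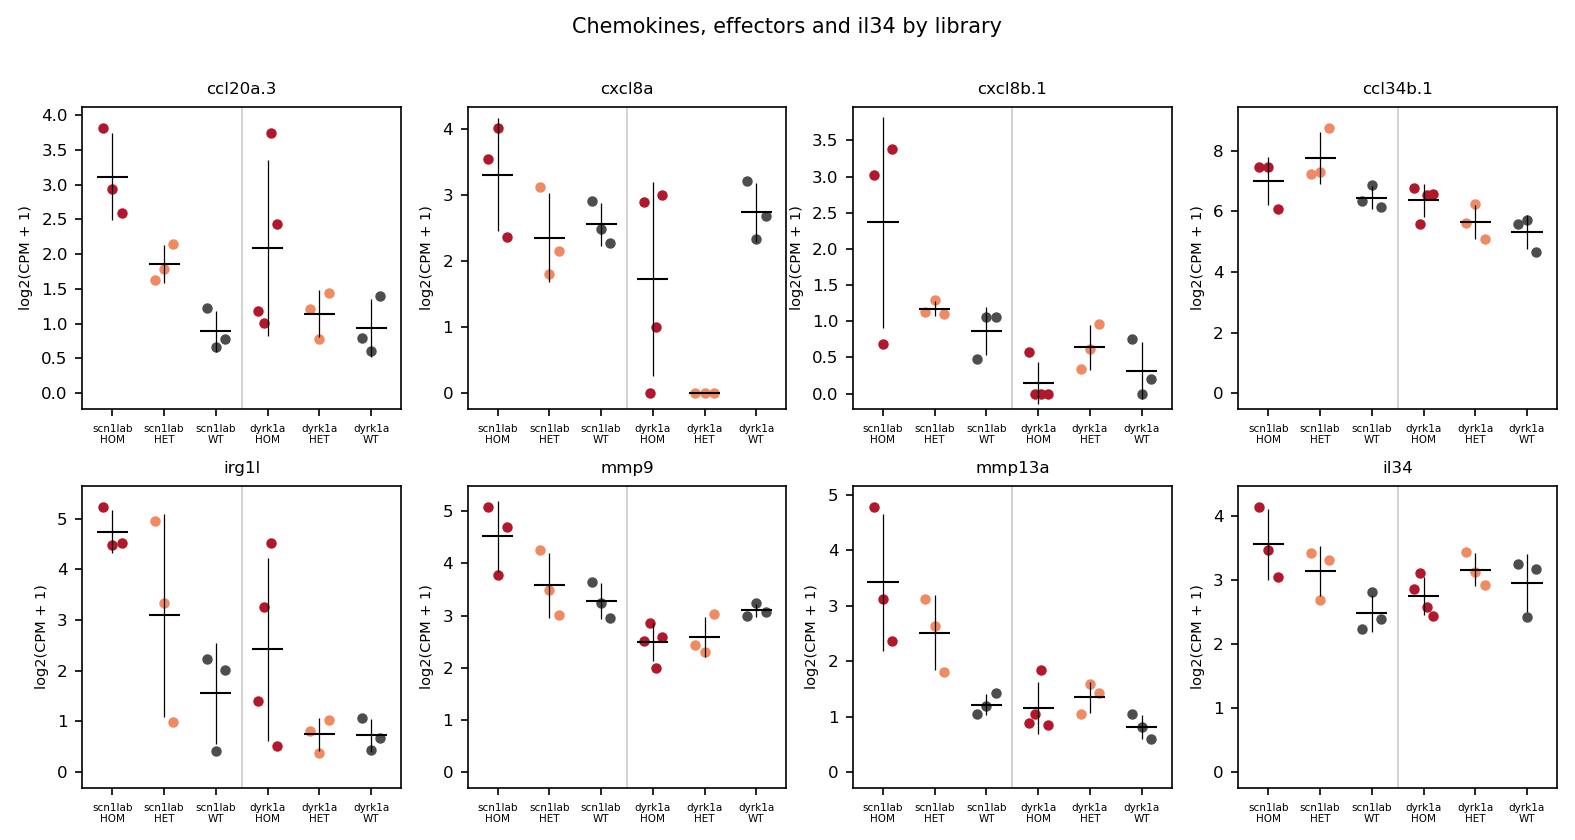
Levels by library as log2(CPM + 1), TMM-scaled (y axis) in the 6 groups (x axis) for 4 chemokines, 3 effectors and il34; points are libraries, horizontal lines means and vertical lines SD. In scn1lab the HOM libraries of ccl20a.3, irg1l, mmp9, mmp13a and il34 all lie above the WT libraries, and cxcl8a lies at 0 in all 3 dyrk1a HET libraries.

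Of the 15 regulators, 14 were tested in scn1lab, and 13 had a log2 change above 0 in HOM. The NF-kB subunit rel (c-Rel) stood at 28.4, 24.9 and 20.02 CPM in scn1lab HOM, against 16.6, 2.98 and 6.98 in HET and 7.73, 6.63 and 6.85 in WT. HOM lay above every HET and WT library, WT varied little, and HET1 stood between HOM and the other HET libraries. The log2 change was 1.79 (SE 0.53), with edgeR adjusted p = 0.166 in the fit of all 9 libraries, 0.0208 with HOM and WT alone and 0.032 in DESeq2. The digestive organ share was 11.99% in HOM1, 0.0432% in HOM2 and 14.7% in HOM3. Its part in the rel levels was not tested.

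The other NF-kB subunits tested, nfkb2, rela and relb, lay higher in every HOM library than in any WT library on TMM-scaled CPM, and overlapped on unscaled CPM. The subunit nfkb2, the precursor of p52 in the non-canonical pathway, stood at 25.2, 25.1 and 36.6 CPM in HOM, against 19.7, 14.8 and 12.98 in HET and 13.01, 12.6 and 17.4 in WT. All HOM libraries lay above all HET and WT libraries, with HOM3 highest; the log2 change was 1.02 (SE 0.29), with edgeR adjusted p = 0.162 and 0.0409 with HOM and WT alone. The subunit rela, the main activating partner in the canonical pathway, stood at 7.26, 3.94 and 3.58 CPM in HOM, against 5.50, 2.01 and 0 in HET and 0.789, 2.26 and 1.84 in WT. HOM and WT did not overlap but lay close, HET ran from 0 to 5.50 CPM, and the change did not pass (log2 change 1.59 (SE 1.13), adjusted p = 0.469). The p52 partner relb stood at 29.1, 26.4 and 24.8 CPM in HOM and 12.6, 19.2 and 16.4 in WT, without overlap (log2 change 0.74 (SE 0.40), adjusted p = 0.35).

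**Figure D3:**
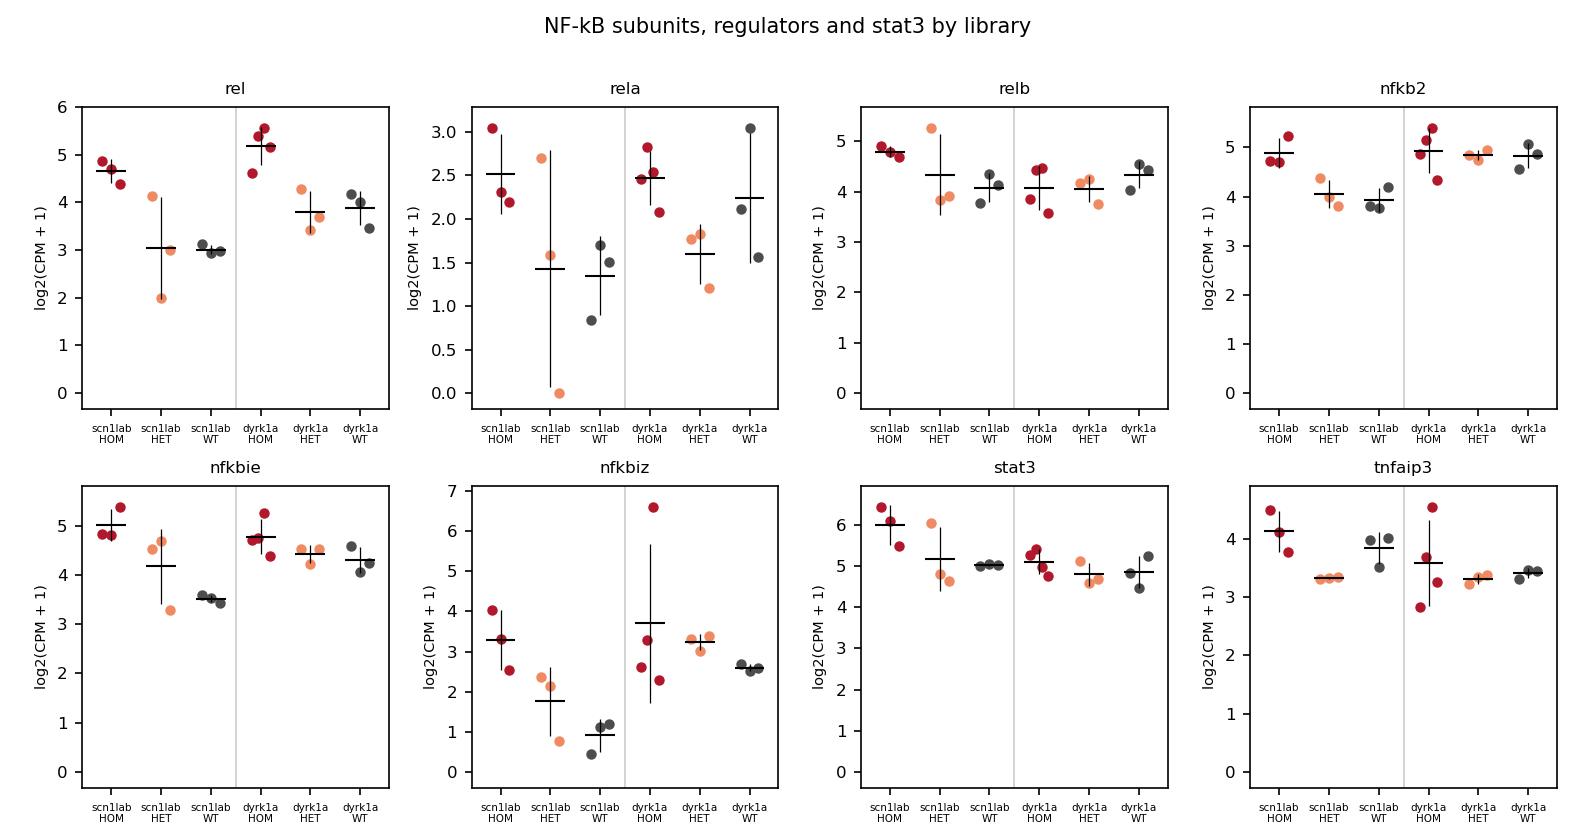
Levels by library as log2(CPM + 1), TMM-scaled (y axis) in the 6 groups (x axis) for NF-kB subunits, their regulators and stat3; points are libraries, horizontal lines means and vertical lines SD. For rel the HOM libraries lie above the WT libraries in both lines, and for nfkbiz 1 dyrk1a HOM library stands at 96.2 CPM.

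Of the IκB family and tnfaip3, the genes nfkbie and nfkbiz rose in the fit of HOM and WT alone, and nfkbiaa, nfkbiab and tnfaip3 did not pass. The IκB protein gene nfkbie stood at 27.5, 27.3 and 40.7 CPM in scn1lab HOM, against 22.2, 24.9 and 8.83 in HET and 11.08, 10.6 and 9.84 in WT; HOM lay above all other libraries, and HET overlapped WT. Its log2 change was 1.60 (SE 0.38), with edgeR adjusted p = 0.156, 0.021 with HOM and WT alone and 0.008 in DESeq2. The atypical IκB gene nfkbiz, whose mammalian protein works in the nucleus on secondary response genes, stood at 15.4, 8.97 and 4.80 CPM in HOM, against 4.16, 3.41 and 0.707 in HET and 0.355, 1.17 and 1.28 in WT. HOM lay above both other groups, with HOM1 highest (log2 change 3.37 (SE 0.80), edgeR adjusted p = 0.156, 0.0281 with HOM and WT alone). Of the IκBα genes, the rapid feedback arm, nfkbiab stood at 119, 120.4 and 117 CPM in HOM and 108, 63.0 and 100.1 in WT, without overlap (log2 change 0.40 (SE 0.26), adjusted p = 0.433). Levels of nfkbiaa were 22.6, 37.7 and 28.3 CPM in HOM and 36.0, 19.1 and 23.8 in WT, which overlapped. The deubiquitinase gene tnfaip3 (A20), another inhibitor, had a log2 change of 0.32 (SE 0.30) and overlapped between HOM and WT.

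Of the cytokine receptor and STAT arm, stat3, the transducer of IL-6 family signals, stood at 85.4, 66.6 and 43.5 CPM in HOM, against 65.1, 27.0 and 24.0 in HET and 31.0, 32.2 and 31.2 in WT. HOM lay above WT, and HET1 reached the HOM range; the log2 change was 1.05 (SE 0.40), with edgeR adjusted p = 0.216, 0.0425 with HOM and WT alone and 0.143 in DESeq2. The IL-4 receptor gene il4r.1 stood at 16.5, 13.5 and 9.15 CPM in HOM and 6.15, 5.72 and 7.21 in WT, without overlap (log2 change 1.04 (SE 0.60), adjusted p = 0.371). The STAT feedback inhibitor SOCS3 (ENSDARG00000025428) was the 1 member below 0: it stood at 10.4, 12.8 and 15.2 CPM in HOM, against 13.2, 8.95 and 17.0 in HET and 34.8, 18.6 and 27.7 in WT. Both mutant genotypes lay below every WT library, on scaled and unscaled CPM, with log2 changes of -1.07 (SE 0.34) in HOM (edgeR adjusted p = 0.176, 0.0535 with HOM and WT alone) and -1.04 (SE 0.34) in HET (adjusted p = 0.341). These comparisons share the 3 WT libraries. The other SOCS3 ID (ENSDARG00000026611) stood at 43.4, 36.4 and 38.1 CPM in HOM and 34.7, 33.7 and 34.5 in WT, a log2 change of 0.20 (SE 0.30), and socs1a overlapped between the groups (0.07 (SE 0.52)).

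All 5 effectors were tested, and 5 of 5 had a log2 change above 0 in scn1lab HOM. The gene irg1l is related to mouse Acod1, which makes the antimicrobial metabolite itaconate in activated macrophages. It stood at 36.7, 21.5 and 21.9 CPM in scn1lab HOM, against 30.0, 9.14 and 0.972 in HET and 3.71, 0.328 and 3.05 in WT. HOM lay above WT, while HET ran from the WT range to the HOM range; the log2 change was 3.50 (SE 1.16), with edgeR adjusted p = 0.188, 0.0545 with HOM and WT alone and 0.0136 in DESeq2.

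The matrix metalloproteinases, which cut collagen and gelatin at wounds and sites of immune cell entry, were higher in every scn1lab HOM library than in any WT library. Levels of mmp13a were 26.6, 7.75 and 4.16 CPM in HOM, against 7.71, 5.18 and 2.47 in HET and 1.06, 1.27 and 1.67 in WT. HET also lay above WT, and HOM1 stood far above HOM2 and HOM3; the log2 change in HOM was 3.26 (SE 0.74), with edgeR adjusted p = 0.156, 0.0382 with HOM and WT alone and 0.000887 in DESeq2. Levels of mmp9 were 32.9, 12.7 and 24.8 CPM in HOM, against 18.0, 10.2 and 7.07 in HET and 11.5, 8.41 and 6.72 in WT. HOM2 lay close to the highest WT library (log2 change 1.41 (SE 0.46), adjusted p = 0.181), and with the high digestive libraries left out the change was 0.51 (adjusted p = 0.552). The prostaglandin synthase PTGS2 (ENSDARG00000004539) stood at 145, 169 and 74.5 CPM in HOM, against 208, 27.6 and 50.3 in HET and 119, 82.4 and 89.6 in WT, with a HOM range that encloses WT, and the other PTGS2 ID (ENSDARG00000010276) had a log2 change of 0.53 (SE 0.43).

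In scn1lab HET, different members were high in different libraries. Of 33 members tested, 25 had a log2 change above 0 against WT (53.4% of all genes), with a median of 0.47 against 0.06 over all genes. On unscaled CPM 15 of 33 had a log2 ratio above 0, with a median of -0.072 against -0.37 over all genes, and without HET1 the fitted median was -0.043 against -0.044. No member passed in edgeR, with all 9 libraries or with HET and WT alone, where 0.0% of all genes passed in either direction. DESeq2 called 0 members (0.558% of all genes higher, 0.55% lower). With HET3 as the single HET library left after leaving out those of high digestive share, 6 members passed (tgfb1a, cxcl12a, ccl25b and ccl34b.1 higher, cxcl14 and rela lower), while 5.83% of all genes were called higher and 9.98% lower. The member median went to -0.26 there and that of all genes to -0.22. With all libraries 6 members had an unadjusted p under 0.05, and 13.2% of all genes did. HET libraries lay above WT for 5 members (9.79% of all genes) and below for 2 (11%), and on unscaled CPM above for 1 (2.32%) and below for 3 (30.5%). HET1 held the highest HET level of rel, rela, relb, stat3, irg1l and mmp9, and HET3 held the highest of tgfb1a, cxcl12a and ccl34b.1. The log2 changes of the 3 members with the smallest p were 1.58 (SE 0.55) for ccl20a.3, 1.47 (SE 0.51) for ccl34b.1 and -1.04 (SE 0.34) for SOCS3 (ENSDARG00000025428), each with an edgeR adjusted p of 0.341.

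Against HET, HOM libraries lay higher for 8 of 33 members (4.97% of all genes), and for 6 on unscaled CPM (4.33%); 0 members lay lower (2.9%, and 1.77% unscaled). The 8 were nfkbiab, tnfaip3, nfkb2, rel, cxcl14, nfkbie, ccl20a.3 and nfkbiz, of which rel and nfkbiz overlapped on unscaled CPM. No member passed in edgeR (adjusted p of 0.945 or more), where 0.0% of all genes were called higher and 0.00466% lower. DESeq2 called 0 members, and 0.138% of all genes higher and 0.1% lower. In the edgeR fit 9 members had an unadjusted p under 0.05, against 4.26% of all genes. The median change was 0.70, against 0.01 over all genes. Without HOM1 the median was 0.36, against 0.018 over all genes. There 2 members had an unadjusted p under 0.05, as did 602 of all 22114 genes. Without HET3 the median was 0.45, against 0.0055 over all genes. The log2 changes were 0.87 (SE 0.29) for nfkb2, 1.64 (SE 0.54) for ccl20a.3 and 1.46 (SE 0.53) for rel.

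In dyrk1a homozygous heads rel was the 1 of 33 members with every HOM library above wild type, as were 4.06% of all genes. This count of members lies near the share over all genes. Levels of rel were 23.6, 40.7, 46.2 and 34.8 CPM in HOM, against 18.5, 9.68 and 11.97 in HET and 16.9, 15.001 and 10.1 in WT. All 4 HOM libraries lay above all 6 other libraries, on scaled and unscaled CPM. The log2 change was 1.38 (SE 0.30) against WT (edgeR adjusted p = 0.449, DESeq2 0.00949) and 1.43 (SE 0.30) against HET (edgeR 0.46, DESeq2 0.00561). Over 18 alternative fits the change against WT stayed between 1.196 and 1.543, with an adjusted p under 0.05 in DESeq2 alone.

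Of 33 members tested, 23 had a log2 change above 0 (51.1% of all 21025 genes), with a median of 0.27 against 0.01 over all genes, and of 0.15 without HOM2. In the edgeR fits 0 members passed, and 0.0% of all genes did; DESeq2 called 2, rel and irg1l, against 0.457% of all genes called higher and 0.141% lower. At an unadjusted p under 0.05, 7 members were named, against 7.8% of all genes. HOM libraries did not overlap WT for 2 members: rel was above (4.06% of all genes) and mmp9 was below (3.64%). On unscaled CPM rel was above (3.77%) and 2 members, mmp9 and ccl19a.1, were below (3.6%).

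Several members were high in dyrk1a HOM3 alone or with 1 other library. Levels of nfkbiz were 5.12, 8.79, 96.2 and 3.89 CPM in HOM, against 8.91, 7.05 and 9.41 in HET and 5.46, 4.71 and 5.06 in WT; HOM3 held 2467 counts of it, and the library with the next highest count held 237. Without HOM3 its log2 change against WT went from 2.48 to 0.24. Levels of ccl20a.3 were 1.26, 1.02, 12.3 and 4.37 CPM in HOM and 0.734, 0.515 and 1.64 in WT, and without HOM3 its change went from 2.28 to 1.21. Levels of irg1l were 1.66, 8.60, 22.0 and 0.425 CPM in HOM, against 0.752, 0.304 and 1.05 in HET and 1.101, 0.356 and 0.582 in WT. HOM2 and HOM3 were high and HOM5 lay within WT (log2 change 3.58 (SE 1.18), edgeR adjusted p = 0.564, DESeq2 0.0385; 2.40 without HOM3). HOM3 had the lowest neutrophil marker share of the dyrk1a libraries, 0.0266%. Its lyz level, 0.897 CPM, was close to the 0.8503 CPM of HOM5, where the neutrophil share was 0.0473%. The microglia marker share of HOM3, 0.423%, lay within the range of the line (0.194% to 0.488%). Other cell type shares were extreme in HOM3 too. Of all 19 libraries it had the lowest epidermal share, 1.92%, and the highest neuronal share, 0.708%. The part of cell types in the HOM3 levels was not tested.

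Of the feedback inhibitors, nfkbiab, nfkbiaa, SOCS3 (ENSDARG00000025428) and socs1a, set together after their values were seen, were highest in HOM1, HOM3 and HET4. The IκBα gene nfkbiab stood at 408, 168, 332 and 133 CPM in dyrk1a HOM, against 161, 121 and 209 in HET and 140.1, 133 and 97.4 in WT. The gene nfkbiaa stood at 59.8, 25.4, 47.1 and 19.3 CPM in HOM, against 28.7, 20.1 and 43.6 in HET and 23.1, 15.6 and 16.7 in WT. For both, HOM1, HOM3 and HET4 were highest, and HOM overlapped WT (log2 changes 1.084 (SE 0.38) and 1.05 (SE 0.41), edgeR adjusted p = 0.5676 and 0.571). SOCS3 (ENSDARG00000025428) stood at 33.6, 6.17, 15.1 and 3.70 CPM in HOM, against 4.44, 3.204 and 26.7 in HET and 8.53, 2.89 and 3.17 in WT, and socs1a at 58.8, 15.3, 22.3 and 7.17 CPM in HOM, against 21.5, 7.32 and 39.8 in HET and 19.5, 6.65 and 5.75 in WT. The highest libraries of both SOCS genes were again HOM1 and HET4, followed by HOM3 for each, and neither passed (adjusted p = 0.757 and 0.765). Of the other inhibitors in HET4, SOCS3 (ENSDARG00000026611) stood at 20.1 CPM, the lowest HET value. There tnfaip3 at 9.36 CPM and nfkbie at 22.0 CPM lay within WT. The atypical IκB gene nfkbiz was highest in HOM3 and next highest in HET4, and all HET libraries lay above WT for it. HET4 had a digestive organ share of 5.14%, and HOM1 one of 0.102%.

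**Figure D4:**
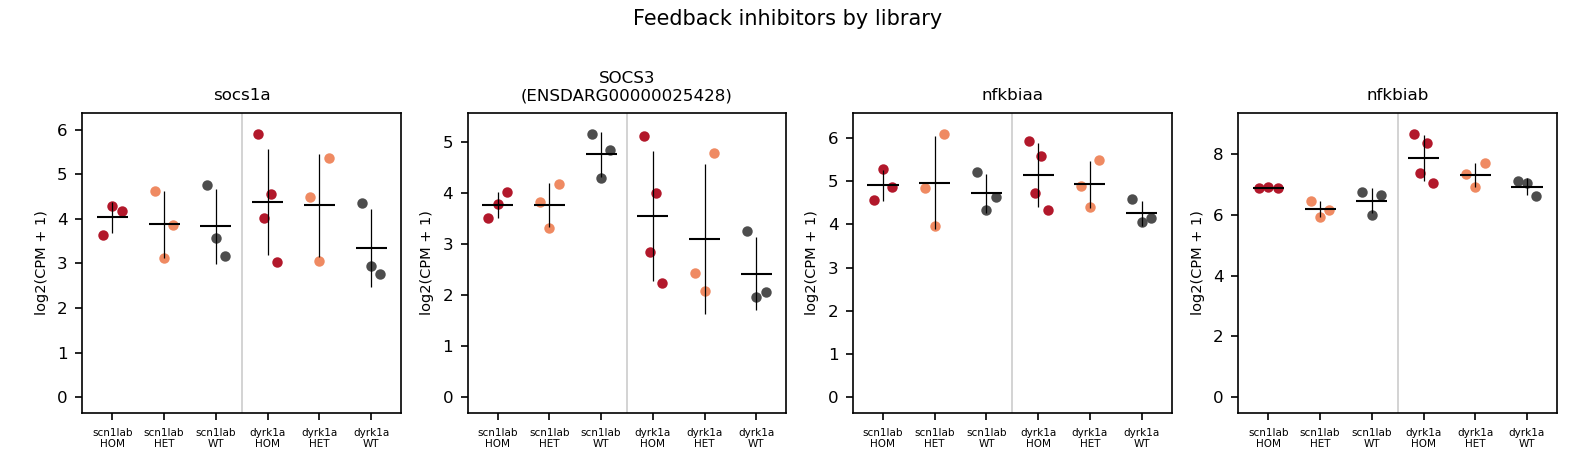
Levels by library as log2(CPM + 1), TMM-scaled (y axis) of 4 feedback inhibitors in the 6 groups (x axis); points are libraries, horizontal lines means and vertical lines SD. In dyrk1a HOM1, HOM3 and HET4 are highest for all 4 genes, and SOCS3 (ENSDARG00000025428) is lower in the scn1lab HOM and HET libraries than in scn1lab WT.

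Among the other regulators and effectors of the dyrk1a line, none passed. The gene nfkbie stood at 25.3, 25.8, 37.0 and 19.9 CPM in HOM and 23.0, 15.7 and 18.0 in WT, with overlap (log2 change 0.52 (SE 0.23)), and nfkb2 at 28.0, 34.3, 41.1 and 19.3 CPM in HOM and 22.6, 32.4 and 28.1 in WT (0.15 (SE 0.24)). Levels of stat3 were 37.6, 41.7, 30.5 and 26.1 CPM in HOM and 27.2, 21.1 and 36.9 in WT. For all 3 the HOM range enclosed or overlapped the WT range. Levels of rela were 4.49, 6.12, 4.80 and 3.22 CPM in HOM, against 2.41, 2.56 and 1.31 in HET and 3.35, 7.24 and 1.97 in WT; HOM lay above HET (log2 change 1.14 (SE 0.47), edgeR adjusted p = 0.714), while WT overlapped both. The metalloproteinase mmp9 stood at 4.71, 6.26, 2.96 and 5.04 CPM in HOM, against 4.40, 3.91 and 7.16 in HET and 6.97, 8.43 and 7.35 in WT, below WT in all 4 HOM libraries (log2 change -0.66 (SE 0.33), adjusted p = 0.669). Levels of mmp13a were 0.853, 1.07, 2.57 and 0.790 CPM in HOM and 1.06, 0.752 and 0.510 in WT. PTGS2 (ENSDARG00000004539) stood at 85.7, 105, 61.5 and 42.0 CPM in HOM and 70.1, 92.7 and 77.8 in WT, with overlap.

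Of the dyrk1a ligands and chemokines, cxcl8a had no counts in the 3 HET libraries. It stood at 8.30, 4.04 and 5.42 CPM in WT and 6.46, 0, 1.01 and 7.05 CPM in HOM, where HOM2 was also at 0. HET thus lay below all WT libraries and overlapped HOM. Against a floor of 3 counts per library, the WT mean was at least 47.9-fold above HET, and the HOM mean at least 29.4-fold. DESeq2 called both (adjusted p = 0.0112 and 0.00669), and edgeR did not (adjusted p = 1 and 0.532 in the fit of all 10 libraries, 0.174 and 0.722 with only the groups compared). The CXCL12 paralog cxcl12b stood at 61.4, 46.7, 85.3 and 37.4 CPM in HOM, against 93.8, 73.9 and 55.3 in HET and 40.2, 46.7 and 31.8 in WT. HET lay above WT and HOM overlapped both, with a log2 change of 0.93 (SE 0.29) in HET (edgeR adjusted p = 1). Levels of ccl34b.1 were 109, 46.8, 91.9 and 94.7 CPM in HOM, against 47.8, 75.0 and 33.4 in HET and 46.9, 51.5 and 24.5 in WT; 3 of 4 HOM libraries lay above all others, and HOM2 lay within WT (log2 change 1.07 (SE 0.36), adjusted p = 0.564). Levels of cxcl14 were 225, 242, 201 and 223 CPM in HOM and 234, 239 and 219.8 in WT, and those of cxcl12a 151, 147, 124 and 137 CPM in HOM and 131, 99.7 and 169.9 in WT, with overlap. Levels of il34 were 6.28, 7.62, 4.99 and 4.43 CPM in HOM and 8.53, 4.39 and 8.01 in WT, and those of tgfb1a 20.4, 22.1, 15.9 and 18.2 CPM in HOM and 18.3, 18.2 and 17.5 in WT, with overlap.

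In the dyrk1a heterozygotes as a body, 22 of 33 members had a log2 change above 0 against WT (51.1% of all genes), with a median of 0.097 against 0.0093 over all genes. The median was 0.0080 without WT2 and 0.18 without WT1, and on unscaled CPM 16 of 33 had a log2 ratio above 0, with a median of -0.036 against -0.11 over all genes. No member passed in edgeR, where 0.0% of all genes did. DESeq2 called 1 member, cxcl8a, which was lower, as were 0.0495% of all genes. At an unadjusted p under 0.05, 2 members were named, cxcl8a and cxcl12b, against 3.33% of all genes. HET did not overlap WT for 4 members: cxcl12b and nfkbiz were above (5.52% of all genes), and SOCS3 (ENSDARG00000026611) and cxcl8a were below (6.5%). On unscaled CPM 2 members were above (3.02%) and 5 were below (11.6%). For HOM against HET, 24 of 33 members were above 0 (48.0% of all genes), and rel and rela did not overlap (4.28% of all genes). There edgeR called 0 members and 0.0% of all genes. DESeq2 called 3 members higher, rel, cxcl8a and irg1l (0.48% of all genes). In edgeR 4 members had an unadjusted p under 0.05 (6.61% of all genes).

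The lines differ by line and, as the file headers of the scn1lab tables alone carry a tag that reads as a date, possibly by preparation, which cannot be told apart; the difference between their effects was tested within 1 fit of all 19 libraries. No member passed for the HOM effect (edgeR adjusted p of 0.326 or more, 0.0222% and 0.00445% of all genes called higher and lower). At an unadjusted p under 0.05, 6 members were named, against 10.8% of all genes. The median difference, dyrk1a minus scn1lab, was -0.55, and 9 of 34 members lay above 0, against 48.1% of all genes. Without scn1lab HOM1 the median difference was -0.27, with 13 of 34 above 0, as were 12247 of all 22994 genes. The smallest p belonged to mmp9, with a difference of -2.08 (SE 0.55): every scn1lab HOM library lay above its WT libraries and every dyrk1a HOM library below its own. In scn1lab, HOM2 lay close to the highest WT library, and the change was smaller without the libraries of high digestive share. DESeq2 called the mmp9 difference between the lines, as it did 0.47% of all genes lower (adjusted p = 0.0307). In edgeR it did not pass (adjusted p = 0.326, 0.0985 with only the 4 groups compared). Next came il34 (-1.55 (SE 0.51)) and mmp13a (-2.47 (SE 0.89)), while rel differed by -0.41 (SE 0.59).

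For the HET effect 0 of 34 members passed in the fit of all 19 libraries (0.00445% of all genes called higher, 0.0% lower), and 4 had an unadjusted p under 0.05, against 6.12% of all genes. The chemokine cxcl8a, at 0 in dyrk1a HET and at 7.71, 2.497 and 3.44 CPM in scn1lab HET, had an edgeR adjusted p of 0.489, 0.0471 with only the 4 groups compared (0.00456% of all genes called lower), and 0.000422 in DESeq2 (0.101% called lower). Its fitted fold change rests on libraries without counts and is not given. The differences of tgfb1a (-1.19 (SE 0.46)) and cxcl12a (-0.91 (SE 0.38)) followed scn1lab HET3 and did not pass.

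Receptors and signal transducers of the same pathways were read from 5 further lists. In the fit of all 9 scn1lab libraries 0 genes of any list passed in HOM. In the fit of HOM and WT alone, where 4.29% of all genes were called higher and 5.75% lower, 4 of 30 cytokine receptor genes rose and 0 fell, with a median change of 0.55 against 0.09 over all genes. They were il17ra1a (23.6 ± 5.58 CPM in HOM and 10.1 ± 0.758 in WT, mean ± SD, n = 3), il13ra1, tnfrsf1a, a receptor for TNF, and il13ra2. Of 13 chemokine receptor genes 1 rose, cxcr3.3 (54.2 ± 11.3 and 29.9 ± 4.59 CPM), a decoy-type receptor in zebrafish. Of 40 genes of Toll-like receptors and NF-kB activation 3 rose and 0 fell: traf2b, an adaptor of TNF receptors (16.4 ± 2.22 and 7.68 ± 1.07 CPM), the receptor tlr22 (5.09 ± 2.33 and 1.078 ± 0.383 CPM) and the brake IRAK3. The 1 of 13 and the 3 of 40 lie near the share over all genes.

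Of the JAK and STAT genes, stat6 (76.8 ± 10.1 CPM in HOM and 30.6 ± 2.25 in WT, log2 change 1.33, adjusted p = 0.0208), which carries IL-4 signals, and STAT4 rose. Of the 24 tested 1 fell, the inhibitor SOCS7 (9.62 ± 1.74 and 25.0 ± 4.98 CPM). Of 19 genes of the inflammasome and of prostanoid and leukotriene synthesis 4 rose: the 5-lipoxygenase gene ALOX5 under the IDs ENSDARG00000043085 (8.57 ± 5.19 and 0.0394 ± 0.0683 CPM) and ENSDARG00000057273 (4.34 ± 2.55 and 0.649 ± 0.187 CPM), casp8 (28.7 ± 0.703 and 12.4 ± 1.91 CPM) and the leukotriene C4 synthase gene LTC4S, at 1.21 ± 0.631 CPM in HOM and 0 in WT. DESeq2 called 1 cytokine receptor, 1 chemokine receptor, 2 Toll-like receptor and NF-kB, 1 JAK and STAT and 3 inflammasome and prostanoid genes higher, and 1 JAK and STAT gene lower, where it called 2.79% of all genes higher and 2.89% lower. In dyrk1a HOM 0 genes of the 5 lists passed in edgeR, where 0.0% of all genes did. In DESeq2 0 passed too, where 0.457% of all genes were called higher and 0.141% lower. The list medians in the main edgeR fit ran from -0.17 to 0.09. Between the lines, stat6 was the 1 gene of these lists that passed in edgeR, with a difference in the HOM effect of -1.28. Its edgeR adjusted p was 0.0448 with only the 4 groups compared and 0.477 in the fit of all 19 libraries. With only the 4 groups compared, 0.183% of all genes were called higher and 0.0274% lower.

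Markers of other cell types moved in the same scn1lab comparison. In the fit of HOM and WT alone, with 4.29% of all genes called higher and 5.75% lower, 13 of 24 epidermal marker genes rose and 1 fell, with a median log2 change of 1.04, and the list took 3.35% to 7.31% of the counts in HOM and 2.76% to 4.68% in WT. Of 31 neuronal marker genes 0 rose and 19 fell (median -1.40), with a share of 0.0852% to 0.1801% in HOM and 0.383% to 0.525% in WT. All 31 digestive organ genes tested had a log2 change above 0 (median 5.19) and 0 passed. Of 19 microglia and macrophage genes 17 had a log2 change above 0 and 3 rose (median 0.93). Their share was 0.191% to 0.308% in HOM and 0.229% to 0.255% in WT. Of 9 neutrophil genes 9 had a log2 change above 0 and 1 rose (median 0.78). Their share was 0.0293% to 0.0536% in HOM and 0.0332% to 0.0381% in WT. In that fit 11255 of all 20684 genes had a log2 change above 0. The lysozyme gene lyz, a leukocyte marker, stood at 86.7, 14.2 and 25.2 CPM in HOM and at 32.8, 9.87 and 23.7 CPM in WT. The gene csf1ra, of the microglia and macrophage list, stood at 8.16, 2.44 and 6.01 CPM in HOM and at 6.43, 6.30 and 7.21 CPM in WT, with overlap. The T cell and thymus list took 0.00318% to 0.00523% of the counts in HOM, below the 0.00875% to 0.0104% in WT. Of its 6 genes tested 0 rose and 1 fell. Its gene rag1 overlapped, at 0.623, 1.03 and 4.80 CPM in HOM and 1.77, 3.39 and 3.48 CPM in WT. Its gene cd8a was at 0 in all but 1 of these 6 libraries, including every WT library, and so does not separate the groups. The part of these cell types in the changes of the members was not tested.

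**Figure D5:**
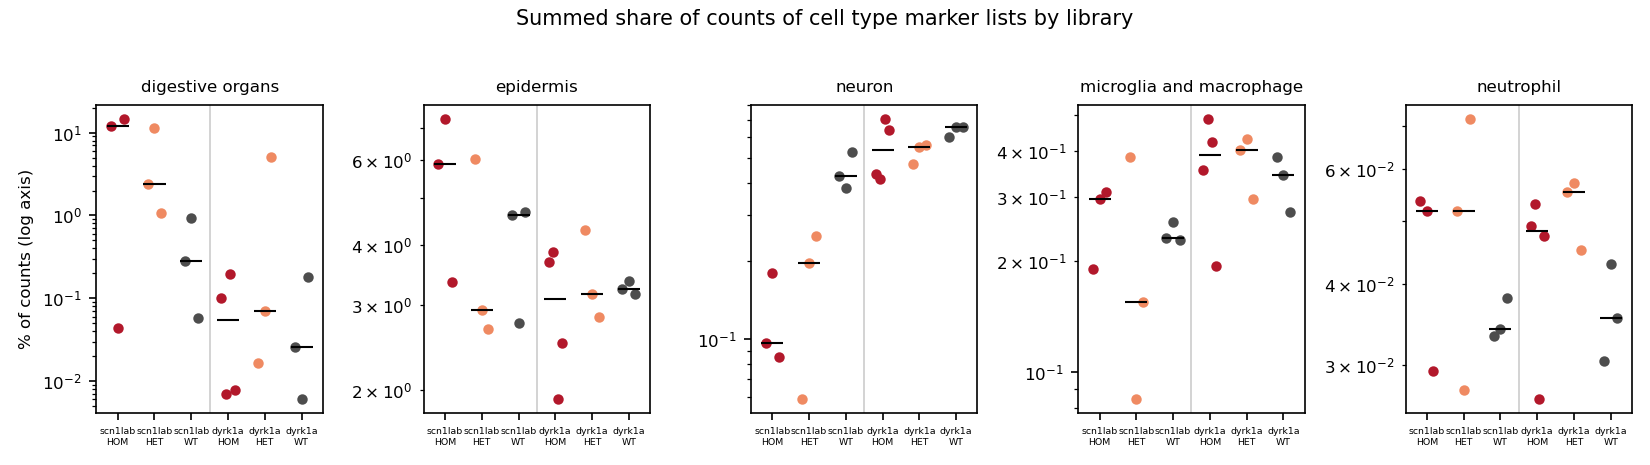
Summed share of counts (y axis, %, log axis) of 5 cell type marker lists in each library, by group (x axis); points are libraries and lines are medians. Shares are of unscaled counts, whereas member levels are TMM-scaled. On unscaled counts the scn1lab HOM libraries lie below the WT libraries for neurons and span them for microglia and macrophages. The digestive organ share of 2 of 3 HOM libraries is above 10%.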

How the data were processed

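The deposited tables hold raw read counts per gene, 1 table per library. Per the submitters' processing notes, Trim Galore 0.5.0, HISAT2 2.1.0, StringTie 1.3.3b, DESeq2 1.22.1 and the build GRCz11 were used; their roles and settings are not given in the sources used here. Of the 2 kits for RNA extraction in the labels, the one used for a given library is not given, and each library is 1 head, so p-values measure the spread between single heads.

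The counts were tested with edgeR 4.0.16 (R 4.3.3): TMM scaling, filterByExpr, the robust quasi-likelihood F test and Benjamini-Hochberg adjustment over all genes tested, called at an adjusted p under 0.05. The main fit held all libraries of a line, and differences between lines came from 1 fit of all 19. The fit of only the groups compared and DESeq2 1.42.0 were among the alternatives. DESeq2 was fitted to every gene with at least 1 count in the libraries used. These were 39 members in scn1lab, 41 in dyrk1a and 42 over both lines. Levels are CPM on library sizes scaled by TMM over all 19 libraries, and a group at 0 was set against a floor of 3 counts per library, which covers counting error only. The scripts were tested on simulated data.

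The members and lists were chosen with earlier results of these data known. Levels by library are given for members past the threshold in the main fit or the fit of the groups compared, for the 10 with the smallest p in HOM against WT of each line, for the 3 with the smallest p in each other comparison and for the highest of each role. Those of tnfb, il1b, csf3a, relb, il4r.1, socs1a and SOCS3 (ENSDARG00000026611) were added after their values were seen. Same-numbered libraries of a line correlated between -0.40 and 0.29 in their deviations from the group means, and differently numbered ones between -0.31 and 0.42. The main fit therefore held no pairing. With so few libraries in a group, these values cannot exclude one. No libraries of a group agreed within sampling noise. The result of 1 gene of the JAK and STAT list is not reported here.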

Additional observations from a re-analysis of the deposited data

Results flagged for a closer look

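In the dyrk1a HOM group, the only one with 4 libraries, 33 members were examined for a library far from the rest, and 3 were flagged. The limit used flags about 1 in 20 groups of normally distributed values. That rate need not hold for CPM of genes with few counts. The regulator nfkbiz stood at 96.2 CPM in HOM3, against 3.89 to 8.79 CPM in the other HOM libraries. The collagenase mmp13a stood at 2.57 CPM in HOM3, against 0.790 to 1.07 CPM in the others. The chemokine cxcl8b.1 stood at 0.494 CPM in HOM1 and at 0 in the others, so any count in HOM1 would have been flagged.

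The metalloproteinase mmp9 was flagged as differing between the lines: it was higher in scn1lab HOM and lower in dyrk1a HOM than in the WT libraries of the same line. Its scn1lab change was smaller without the libraries of high digestive share. The difference of -2.08 (dyrk1a minus scn1lab, log2) had an adjusted p of 0.326 in edgeR and 0.0307 in DESeq2.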

How the results depend on the processing

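No member passed in the main edgeR fit in any of the 8 comparisons, nor in that fit with 1 library left out at a time (0 to 0). With all libraries the main fit called at most 0.0222% of all genes in a given direction. For scn1lab HOM against WT, 7 members passed in the fit of the groups compared, 5 in the fit of all 19 libraries and 8 in DESeq2. The fit of all 19 libraries called 557 of all 22488 genes higher and 721 lower in this comparison. The 7 became 0 to 7 with 1 library left out, and 0 when those of high digestive share were dropped (over 2% of counts), where HOM2 alone represents HOM and is assumed to vary like WT; both alternatives were chosen after seeing the data. DESeq2 called 2 members in dyrk1a HOM against WT, 1 in HET against WT, 3 in HOM against HET, and 1 in each difference between lines; the fit of the groups compared called 1 in the HET difference. Without libraries of high digestive share, 6 members passed in scn1lab HET against WT (5.83% of all genes called higher, 9.98% lower) and 4 in the HET difference (tgfb1a, cxcl12a, cxcl14 and rela; 6.04% higher, 1.94% lower), with HET3 the single scn1lab HET library left.

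The median of scn1lab HET against WT turned to -0.26 without the libraries of high digestive share and ran from -0.043 (without HET1) to 0.61 with 1 library left out, and that of the HET difference to 0.20 without the libraries of high digestive share. The log2 change of cxcl8b.1 in scn1lab HOM turned to -0.49 (adjusted p = 0.843) without them; the cause was not tested. Of the other alternative values of named members, 701 kept direction and side of the threshold, and 31 kept direction and passed it. With the replicate number as a block, 0 members passed in each comparison. At this depth 10 members could not be tested in either line in the main edgeR fit.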
